A study of Oryza sativa with 20 samples.

Results

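The genes described are 4 of the rice actin cytoskeleton: the actin-depolymerizing factors ADF1, ADF5 and ADF9, and the actin ACT2. They were found by name in the array annotation, as a symbol or synonym of a probe set's single gene. Each was read by 1 probe set, for the genes LOC4330233 (ADF1), LOC4332220 (ADF5), LOC4343240 (ADF9) and LOC4349087 (ACT2). They are 4 of the 17905 genes with a probe set of their own, and all 4 passed the filter on low values.

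Transcript levels were measured on 20 Affymetrix rice arrays in pistils of paddy-grown Oryza sativa, for which the labels name no cultivar and no mutation. The stigma was taken 5 min after pollination (n = 2) and before pollination (n = 3), and the ovary 5 min after pollination (n = 3) and before pollination (n = 3). Whole pistils, that is stigma and ovary together, were taken at 15-25 min, at 40-50 min and at 5-7 h (n = 3 each), stages that the labels call pollen tube growth, fertilization and zygote formation. Per the labels all pollinated samples, ovaries included, still held the pollen grains that had landed on them, so each holds RNA of pollen as well as of the pistil. The labels call the replicates biological without naming plants or days, so the p-values measure the spread between these samples.

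Actin is the protein of the thin filaments along which vesicles move in plant cells, and a pollen tube grows at its tip by vesicles delivered along actin cables. Actin-depolymerizing factors bind actin filaments, sever them and speed the loss of subunits, which keeps the filaments turning over. Formins start new filaments, villins bundle and sever them, the Arp2/3 complex branches them when the SCAR complex switches it on, and ROP GTPases, called Rac in rice, direct where they form. In the self-incompatible poppy, the stigma signal that stops unwanted pollen acts on pollen actin filaments.

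Values are relative intensities on a linear scale, with the 75th percentile of an array at 1. They are comparable between arrays for a given probe set, and the level of a probe set was not set against that of another. A change is a difference of log2 group means from limma, called at a Benjamini-Hochberg adjusted p under 0.05 over all 35496 tested probe sets. A fold is a ratio of geometric means. Array medians ran from 0.194 to 0.377, and the lowest correlation between arrays of a group was 0.937. The 6 carpel and ovule identity genes were detected in every group, with summed levels of 58.7 to 64.2 in 5-min stigmas, 83.4 to 99.9 in unpollinated stigmas and 68.7 to 87.3 in the other groups. The stamen and lodicule genes MADS2, MADS4 and MADS16 summed to 67.5 to 93.8 in 5-min stigmas, against 117 to 129 in unpollinated stigmas, and to 26.7 to 58.3 in unpollinated ovaries, while the 5 anther wall genes summed to 1.77 to 3.54 on any array. The pollen markers matched by name were the beta-expansins EXPB9 and EXPB10, of the group-1 pollen allergens.

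The first question was which of the 4 genes differed in the stigma once pollen had landed. All 4 were higher in the stigma 5 min after pollination than before it, by 3.35-fold for ACT2 up to 9.18-fold for ADF1. Over all tested probe sets 8.6% were called higher in this comparison. The 4 genes were chosen with earlier results of these data known, so their count beside this share is no test. In the ovary sampled at the same time ADF9 alone was called, against 3.87% of tested probe sets called higher there. ADF5 and ACT2 were the members whose change was larger in the stigma than in the ovary by the test of that difference.

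**Figure D1:**
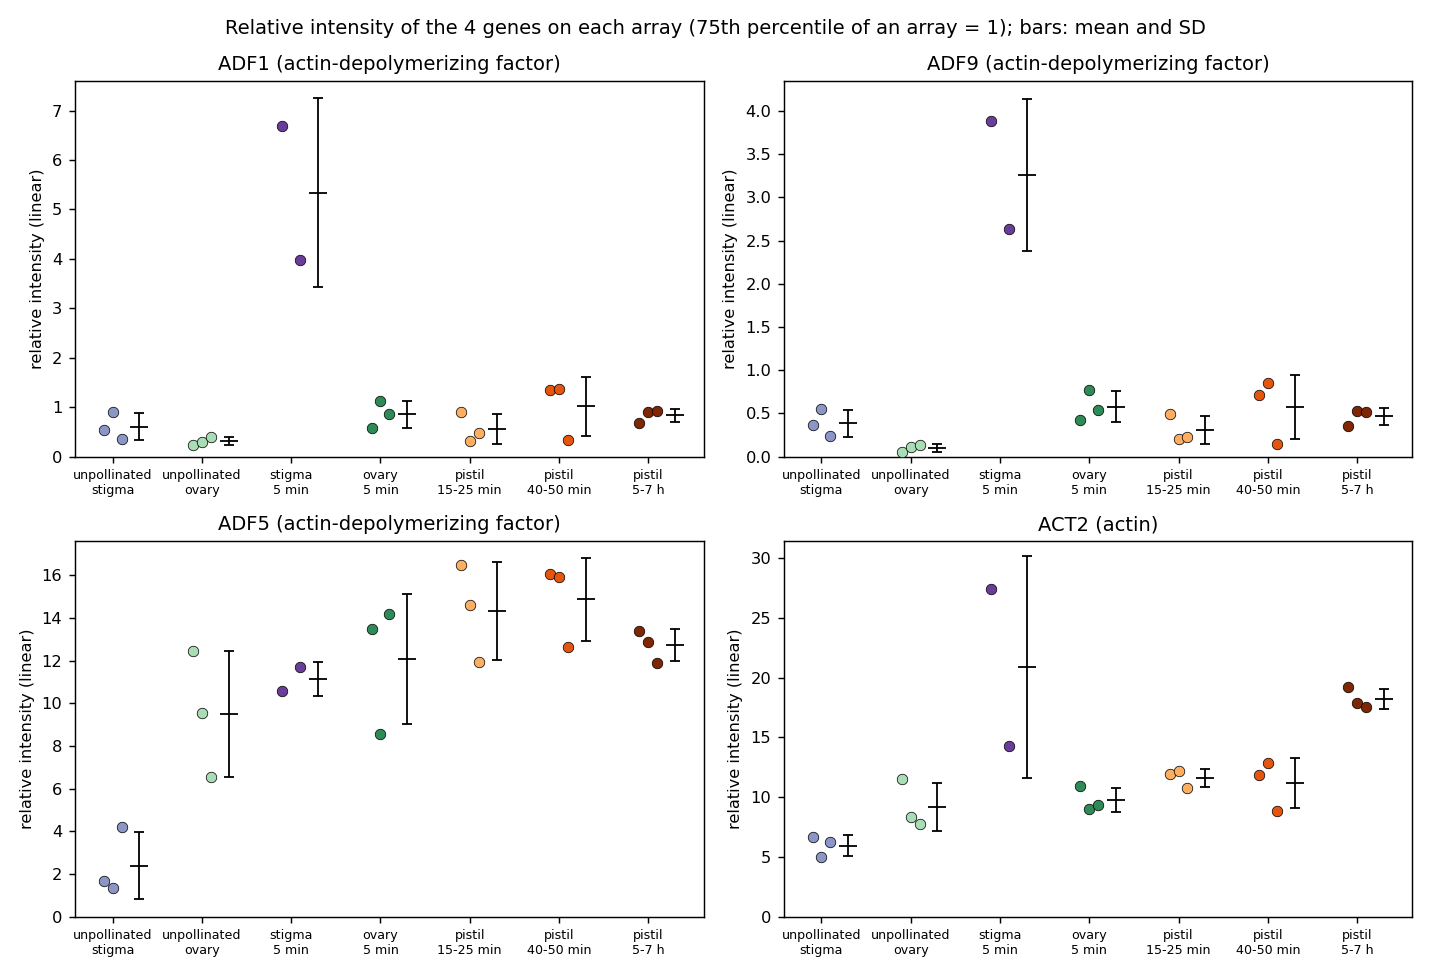
Relative intensity (linear, 75th percentile of an array at 1) of ADF1, ADF9, ADF5 and ACT2 in the 7 groups. Each point is an array and each bar the mean with its SD (n = 2 for stigma at 5 min, 3 otherwise). ADF1 and ADF9 stand highest in the 5-min stigma, ADF5 stands lowest in the unpollinated stigma, and ACT2 is high in the 5-min stigma and in 5-7 h pistils.

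ADF1, a depolymerizing factor, had 6.69 and 3.99 in the 5-min stigmas, against 0.541, 0.902 and 0.364 in unpollinated stigmas. Both pollinated arrays lay above every unpollinated array, as did those of 15.1% of tested probe sets. The log2 change was 3.20 ± 0.54 (SE, limma, adjusted p = 0.000561). In the ovary ADF1 had 0.582, 1.13 and 0.855 at 5 min, against 0.233, 0.299 and 0.396 before pollination. The arrays again did not overlap, which held for 9.95% of tested probe sets, but the change of 1.45 ± 0.49 did not pass the threshold (adjusted p = 0.0891). Without the third 40-50 min pistil array, which enters only the estimate of the spread, the adjusted p was 0.0297.

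ADF9, of the same family, had 3.88 and 2.64 in the 5-min stigmas and 0.366, 0.545 and 0.240 in unpollinated stigmas. The groups did not overlap, and the log2 change was 3.14 ± 0.56, or 8.81-fold (limma, adjusted p = 0.000852). In the ovary ADF9 had 0.428, 0.773 and 0.534 at 5 min, against 0.0485, 0.111 and 0.138 before pollination. The lowest pollinated ovary lay above the highest unpollinated ovary. Of the 3 unpollinated arrays, 2 lay under the floor of 0.128 used for the logarithm, so the change of 2.10 ± 0.50 stands for at least 4.28-fold (adjusted p = 0.0196). This call was lost with all probe sets tested (adjusted p = 0.0600), and without the third unpollinated ovary or the second or the third 5-min ovary array (adjusted p from 0.0666 to 0.0695).

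ADF5 followed another course. It had 10.6 and 11.7 in the 5-min stigmas, against 1.66, 1.34 and 4.20 in unpollinated stigmas, with no overlap. The log2 change was 2.40 ± 0.36, or 5.28-fold (limma, adjusted p = 0.000194). Its ovary values were 13.5, 8.58 and 14.2 at 5 min and 12.5, 9.53 and 6.53 before pollination. These overlapped, and the change of 0.36 ± 0.32 was not called (adjusted p = 0.616). The stigma change exceeded the ovary change by 2.04 ± 0.48 on the log2 scale (interaction, adjusted p = 0.0422).

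ACT2, an actin, had 27.4 and 14.3 in the 5-min stigmas, against 6.65, 5.00 and 6.21 in unpollinated stigmas. The groups did not overlap, although the pollinated arrays differed from each other by more than the unpollinated ones did. The log2 change was 1.74 ± 0.24 (limma, adjusted p = 8.25e-05), and without the first 5-min stigma array it was 1.28 (adjusted p = 0.00160). In the ovary ACT2 had 10.9, 9.03 and 9.39 at 5 min and 11.5, 8.33 and 7.76 before pollination. The 2 groups overlapped, and the change of 0.10 ± 0.21 was not called (adjusted p = 0.877). The stigma change exceeded the ovary change by 1.64 ± 0.32 (interaction, adjusted p = 0.0140).

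The interaction was called for 2 of the 4 genes, against 1.37% of all tested probe sets, and not for ADF1 (1.75 ± 0.73, adjusted p = 0.311) or ADF9 (1.04 ± 0.75, adjusted p = 0.656). Both calls were lost with arrays centred on their medians (adjusted p = 0.127 for ADF5 and 0.176 for ACT2) and in a fit of only the 4 groups compared (0.270 and 0.143). That of ADF5 was also lost with all probe sets tested (0.0834) and with the replicate number as a block (0.0536). It was lost as well when any of 17 of the 20 arrays was left out (adjusted p from 0.0530 to 0.163).

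**Figure D2:**
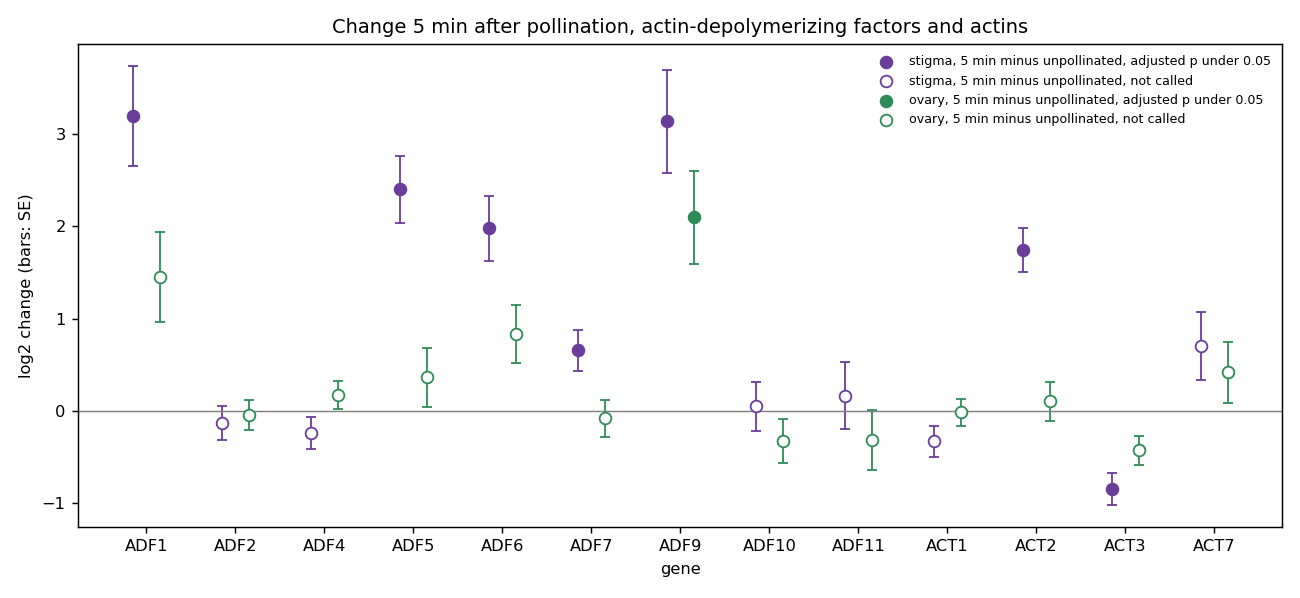
Log2 change 5 min after pollination (5 min minus unpollinated; bars are SE) for the 9 actin-depolymerizing factors and 4 actins tested, in the stigma (purple) and the ovary (green). Filled points passed an adjusted p of 0.05. ADF1, ADF9, ADF5, ADF6 and ACT2 have the highest stigma changes, and ADF9 has the only filled ovary point.

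Both pollen markers were also called higher in the 5-min stigma. In the 5-min ovary EXPB9 was called, where of the 4 genes ADF9 alone was. EXPB9 had 66.0 and 62.5 in the 5-min stigmas, against 3.83, 4.39 and 2.35 in unpollinated stigmas. In the ovary it had 9.13, 19.5 and 8.12 at 5 min, against 0.180, 0.328 and 0.487 before pollination. Both changes were called (4.24 ± 0.80 with adjusted p = 0.00134 in the stigma, and 5.21 ± 0.72 with adjusted p = 0.000411 in the ovary). EXPB10 was called higher in the 5-min stigma (1.76 ± 0.41, adjusted p = 0.00566) but not in the 5-min ovary (0.75 ± 0.37, adjusted p = 0.263). The summed level of the 2 markers ran from 63.5 to 67.9 in 5-min stigmas and from 2.80 to 4.93 in unpollinated stigmas, and neither marker lay under the floor on all arrays of any group. Markers of the flower organs differed between the stigma groups as well. MADS21, an ovule identity gene, was at 0.256 and 0.964 in the 5-min stigmas and between 0.142 and 0.304 in unpollinated stigmas, with overlap, and was called higher at 5 min (1.22 ± 0.39, adjusted p = 0.0344). In unpollinated ovaries it ran from 4.52 to 6.37, and its change in the ovary at 5 min was -0.03 (adjusted p = 0.988). Of the other 5 carpel and ovule genes MADS58 was called lower in the 5-min stigma (-0.62 ± 0.16, adjusted p = 0.0107) and none higher, MADS29 standing at 1.51 ± 0.55 (adjusted p = 0.0608). Of the stamen and lodicule genes MADS2 (-0.82 ± 0.21, adjusted p = 0.0102) and MADS4 (-1.17 ± 0.16, adjusted p = 0.000116) were called lower. The part of pollen RNA and of these tissue markers in the changes of the 4 genes was not tested, and a higher number of cells of a type and more RNA per cell cannot be told apart in these bulk samples.

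The members differed in how closely they tracked EXPB9 from array to array. Within 6 of the 7 groups the arrays ranked by ADF1 in the order of EXPB9, and within 5 groups by ADF9. ACT2 kept that order in 2 groups and ADF5 in none. The share of all tested probe sets keeping it was not counted, and the 5-min stigma has only 2 arrays to order. Over the 20 arrays Pearson's r of log2 values with EXPB9 was 0.88 for ADF1, 0.91 for ADF9, 0.53 for ACT2 and 0.19 for ADF5. These describe arrays that share tissue, pollination and library, so they carry no test. The other pollen marker, EXPB10, was not used for this ordering and did not always move with EXPB9. In 5-7 h pistils EXPB10 was called lower than in unpollinated stigmas (-1.19 ± 0.37, limma, adjusted p = 0.0133). EXPB9 was not called in that contrast (1.75 ± 0.72, adjusted p = 0.0501). On the third 40-50 min pistil array EXPB9 stood at 1.46, against 15.5 and 19.5 on the other arrays of the group. Each of the members was also lowest of its group there. ADF1 was at 0.330 (others 1.34 and 1.38) and ADF9 at 0.149 (others 0.712 and 0.852). ADF5 was at 12.7 (others 16.0 and 15.9) and ACT2 at 8.83 (others 11.9 and 12.9). The share of all tested probe sets that were lowest of the group on that array was not counted.

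**Figure D3:**
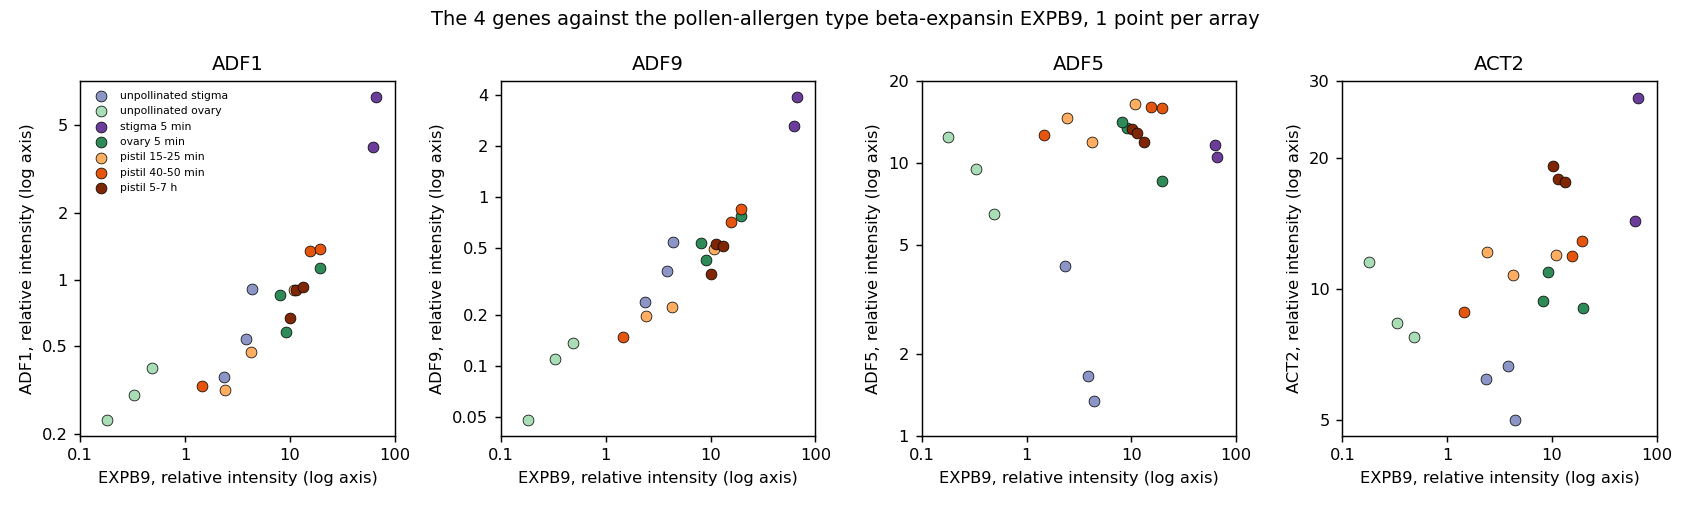
Relative intensity of each gene (vertical, log axis) against that of the pollen beta-expansin EXPB9 (horizontal, log axis), with an array as a point and groups by colour. ADF1 and ADF9 mostly rise with EXPB9 over the 20 arrays (r of log2 values 0.88 and 0.91). The 3 lowest ADF5 points are unpollinated stigmas with EXPB9 between 2.35 and 4.39.

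Before pollination the tissues already differed in 3 of the 4 genes, where 32.8% of tested probe sets were called in either direction. ADF5 was lower in the unpollinated stigma than in the unpollinated ovary by a log2 change of -2.12 ± 0.32, or 4.36-fold (limma, adjusted p = 6.21e-05), and no stigma array reached the lowest ovary array, which held for 14.6% of tested probe sets. ACT2 was also lower in the stigma, by -0.62 ± 0.21 (adjusted p = 0.0330), with no overlap. The ACT2 call was lost in a fit of only these groups (adjusted p = 0.0854), and when the first unpollinated ovary (-0.44, adjusted p = 0.161) or the second or the third unpollinated stigma was left out (adjusted p = 0.107 and 0.0553). ADF9 was higher in the stigma by at least 2.77-fold (1.47 ± 0.50, adjusted p = 0.0325), with all 3 stigma arrays above the ovary arrays, as for 27.1% of tested probe sets. This call was lost under each of the 3 other scalings (adjusted p from 0.0666 to 0.123), with all probe sets tested (0.0598), and without the first or the second unpollinated stigma or any of the unpollinated ovaries (from 0.0619 to 0.109). ADF1 was not called (0.90 ± 0.49, adjusted p = 0.159). EXPB9 was higher in unpollinated stigmas than in unpollinated ovaries too (3.47 ± 0.72, adjusted p = 0.00123), and its part in the differences was not tested. The median of all tested probe sets was itself 0.22 higher in the stigma, and -0.10 with arrays centred on their medians.

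At 5 min the stigma stood above the ovary in 3 of the 4 genes, against 35% of tested probe sets called in either direction. The log2 difference was 2.65 ± 0.54 for ADF1 (limma, adjusted p = 0.00133), 2.51 ± 0.56 for ADF9 (adjusted p = 0.00254) and 1.02 ± 0.24 for ACT2 (adjusted p = 0.00316). The ACT2 call was lost with arrays centred on their medians (0.62, adjusted p = 0.180) and without the first 5-min stigma array (0.55, adjusted p = 0.0836). ADF5, which of the 4 had the widest gap between the tissues before pollination, differed by -0.09 ± 0.36 (adjusted p = 0.862), and its 5-min stigma arrays lay within the range of its 5-min ovary arrays.

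Whole pistils were set against both unpollinated tissues, since they hold both, and a gene was called only where both contrasts were called in the same direction. At 15-25 min none of the 4 genes was called, against 6% of tested probe sets. At 40-50 min none was called either, against 3.97%. At 5-7 h ACT2 was called and the 3 depolymerizing factors were not, against 16% of tested probe sets.

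ACT2 had 12.0, 12.2 and 10.8 at 15-25 min, 11.9, 12.9 and 8.83 at 40-50 min, and 19.2, 17.9 and 17.6 at 5-7 h. The 5-7 h arrays lay above all arrays of the earlier pistils and of both unpollinated tissues. Such a gap held for 21.1% of tested probe sets against the unpollinated stigma, 20.3% against the unpollinated ovary and 21.9% against 40-50 min pistils. Against the unpollinated stigma the 5-7 h change was 1.62 ± 0.21 (limma, adjusted p = 7.47e-06), and against the unpollinated ovary 1.01 ± 0.21 (adjusted p = 0.00175). In 5-7 h pistils ACT2 was higher than in 40-50 min pistils by 0.72 ± 0.21 on the log2 scale (adjusted p = 0.0233), the only member called, against 11.2% of tested probe sets called higher. That call was lost with arrays centred on their medians (0.85, adjusted p = 0.0687), and when the third 40-50 min array (0.56, adjusted p = 0.117) or any of the 5-7 h arrays (adjusted p from 0.0568 to 0.0797) was left out. EXPB9 was not called between these groups (0.59 ± 0.72, adjusted p = 0.638). MADS2 (-1.19 ± 0.19, adjusted p = 0.000369) and MADS3 (-0.86 ± 0.22, adjusted p = 0.0103) were called lower in 5-7 h pistils, and the stamen and lodicule genes summed to 16.4 to 19.6 there, against 29.2 to 30.2 at 40-50 min. Their part in the ACT2 difference was not tested.

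ADF5 stood at 16.5, 14.6 and 11.9 at 15-25 min, at 16.0, 15.9 and 12.7 at 40-50 min, and at 13.4, 12.9 and 11.9 at 5-7 h. All 9 pistil arrays lay above the unpollinated stigma, as those of 14.2%, 12.3% and 21.1% of tested probe sets did at the 3 times. The log2 changes were 2.76, 2.81 and 2.59 in order of time (SE 0.32 each, limma, adjusted p = 5.06e-06, 3.6e-06 and 4.18e-06), where 11.7%, 10.9% and 18.4% of tested probe sets were called higher. Against the unpollinated ovary the changes were 0.63, 0.69 and 0.47 and none was called (adjusted p from 0.191 to 0.337). A pistil holds the ovary as well as the stigma, and ADF5 was higher in the unpollinated ovary than in the unpollinated stigma, so the contrast with the stigma also carries that tissue difference.

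ADF1 had 0.894, 0.318 and 0.469 at 15-25 min, 1.34, 1.38 and 0.330 at 40-50 min, and 0.671, 0.897 and 0.926 at 5-7 h. ADF9 had 0.496, 0.197 and 0.223, then 0.712, 0.852 and 0.149, and then 0.352, 0.527 and 0.515 at the same times. All of these lay under the 5-min stigma arrays of the same gene, and their ranges at all 3 times overlapped those of the unpollinated stigma. Against the unpollinated ovary alone, ADF9 was called higher at 40-50 min (1.77 ± 0.50, at least 3.42-fold, adjusted p = 0.0309) and at 5-7 h (1.80 ± 0.50, at least 3.49-fold, adjusted p = 0.0130), and ADF1 at 5-7 h (1.45 ± 0.49, adjusted p = 0.0362). In these contrasts 6.02% of tested probe sets were called higher at 40-50 min and 13.1% at 5-7 h. With all probe sets tested ADF9 at 40-50 min and ADF1 at 5-7 h were not called (adjusted p = 0.0800 and 0.0909), nor were they with arrays centred on their medians (0.0620 and 0.0523). ADF9 at 40-50 min was also not called in a fit of only the groups compared (adjusted p = 0.116), nor ADF1 at 5-7 h after quantile normalization (0.0571). Without the third 40-50 min array, that with the low EXPB9, both genes were called against both tissues at 40-50 min, by 1.27 for ADF1 (adjusted p = 0.0332) and 1.10 for ADF9 (adjusted p = 0.0423). Between 40-50 min and 15-25 min no probe set at all (0%) was called by limma, the 4 members included. Of all tested probe sets 1034 (2.91%) had an unadjusted p under 0.05, fewer than that threshold alone would give with no difference.

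Ordered by group mean, ADF1 was highest in the 5-min stigma (5.34 ± 1.91, SD, n = 2), with a gap to the next group, the 40-50 min pistil (1.02 ± 0.59, n = 3). The ranges of all further neighbours overlapped, down to the unpollinated ovary (0.309 ± 0.082, n = 3). ADF9 had the same extremes, at 3.26 ± 0.88 in the 5-min stigma (n = 2) and 0.0991 ± 0.0459 in the unpollinated ovary (n = 3), and both ends stood clear of their neighbours. For ADF5 the 6 groups from 14.9 ± 1.93 (40-50 min pistil) to 9.51 ± 2.96 (unpollinated ovary) overlapped from neighbour to neighbour, and the unpollinated stigma stood clear below at 2.40 ± 1.57 (n = 3 each). ACT2 fell into 3 steps: the 5-min stigma (20.9 ± 9.28, n = 2) with the 5-7 h pistil (18.2 ± 0.856, n = 3), then the 4 groups from 11.6 ± 0.761 (15-25 min pistil) to 9.20 ± 2.02 (unpollinated ovary), then the unpollinated stigma at 5.95 ± 0.854 (n = 3).

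Among themselves, ADF1 and ADF9 had the closest courses, with r = 0.98 over the 20 arrays and the same order of arrays within 6 of the 7 groups. ADF5 correlated with ADF1 at 0.11 and with ADF9 at 0.08. ACT2 lay between, at 0.67 with ADF5, 0.54 with ADF1 and 0.50 with ADF9. Among the 2255 genes with a name, those most like ADF1 over the 20 arrays were ADF9, the aldolase AldC-alpha (r = 0.98) and the calcium-dependent protein kinase CPK22 (0.97). The same 3 names with ADF1 in place of ADF9 came out for ADF9, each at 0.98. Most like ADF5 were the protein kinase CIPK16 (0.96), G1L2 (0.93) and the protein phosphatase OsPP2C08 (0.93). Most like ACT2, and less close, were the splicing factor Os-RSZ21a (0.86), ILL6 (0.86) and the protein kinase CIPK7 (0.84). By Spearman's rho 2 of the 3 names held for ADF1 and for ADF9, 1 for ACT2 and none for ADF5. The arrays share tissue and stage, so these values describe likeness only.

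The depolymerizing factors and actins were also read as families in the 5-min stigma. Of the 9 depolymerizing factors 5 were called higher and none lower, against 8.6% and 13.4% of all tested probe sets. Their median log2 change was 0.65, against -0.02 over all tested probe sets. This count and median include the members ADF1, ADF5 and ADF9, which were chosen with earlier results of these data known. The others called higher were ADF6 (1.98 ± 0.36, adjusted p = 0.000878) and ADF7 (0.65 ± 0.22, adjusted p = 0.0430), named after their values were seen. The ADF7 call was lost with arrays centred on their medians (adjusted p = 0.247) and with all probe sets tested (0.0699). ADF2 (-0.13), ADF4 (-0.25), ADF10 (0.05) and ADF11 (0.16) were not called. Of the 4 actins, ACT2 was called higher and ACT3 lower (-0.85 ± 0.17, adjusted p = 0.00239). ACT3 averaged 24.7 ± 6.83 in the 5-min stigma (n = 2) and 43.7 ± 2.55 in the unpollinated stigma (n = 3), so 2 actin genes moved in opposite directions. ACT1 (-0.33 ± 0.17, adjusted p = 0.182) and ACT7 (0.71 ± 0.37, adjusted p = 0.198) were not called, and a second ACT1 probe set gave 0.09. A second ACT3 probe set gave -0.80 and was not called (adjusted p = 0.153).

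**Figure D4:**
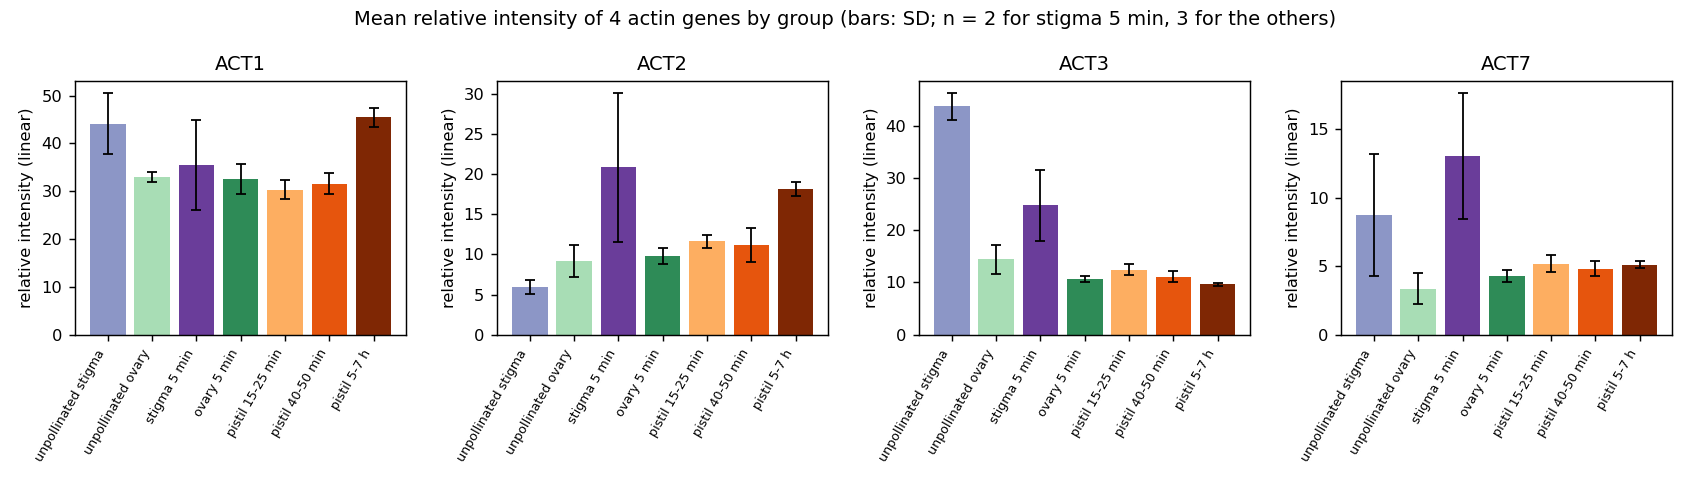
Mean relative intensity (linear, from 0) of the actins ACT1, ACT2, ACT3 and ACT7 in the 7 groups, with SD bars (n = 2 for stigma at 5 min, 3 otherwise). ACT2 is lowest and ACT3 highest in the unpollinated stigma, where they average 5.95 and 43.7.

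ACT2 and ACT3 were also called in opposite directions in other comparisons. ACT3 was higher in the unpollinated stigma than in the unpollinated ovary (1.61 ± 0.16, limma, adjusted p = 3.96e-07), where ACT2 was lower. In 5-7 h pistils ACT3 was lower than in the unpollinated stigma (-2.18 ± 0.16, adjusted p = 5.77e-09) and than in the unpollinated ovary (-0.57 ± 0.16, adjusted p = 0.0113), where ACT2 was higher. The exception was the 5-min stigma against the 5-min ovary, where both were higher (1.19 ± 0.17 for ACT3, adjusted p = 7.11e-05). The second ACT3 probe set had the same signs. It was not called between the unpollinated tissues (0.90, adjusted p = 0.0520) or between the tissues at 5 min (0.91, adjusted p = 0.0714), and was called lower at 5-7 h against the unpollinated stigma (-1.87, adjusted p = 0.000246) and ovary (-0.97, adjusted p = 0.0455). The ACT3 call of 5-7 h pistils against the unpollinated ovary was lost with arrays centred on their medians (adjusted p = 0.164), and under the 3 other scalings no called change of ACT2 or ACT3 turned its sign.

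The wider list held 41 genes named as actins, actin-related proteins or regulators of actin, of which 40 were tested. Genes entered it by name alone, and whether each acts on actin filaments was not tested. In the 5-min stigma 7 were called higher and 5 lower, against 8.6% and 13.4% of all tested probe sets, with a median change of 0.07 against -0.02, and the 4 members are among the 7. By role, 1 of the 4 villins was higher (VLN4, 1.32 ± 0.33, limma, adjusted p = 0.00859), and none of the 9 formins tested was called. Lower were the actin-related protein ARP4 (-0.81 ± 0.16, adjusted p = 0.00217), the SCAR complex subunit NAP1 (-0.60 ± 0.21, adjusted p = 0.0442) and 2 of the 7 ROP GTPases, OsRac1 (-0.69 ± 0.18, adjusted p = 0.0113) and OsRac5 (-0.62 ± 0.13, adjusted p = 0.00272). In a fit of only the 2 stigma groups ADF7 and the 5 genes lower at 5 min, ACT3 among them, were no longer called (adjusted p from 0.203 to 0.375), whereas the 4 members, ADF6 and VLN4 were. The calls of NAP1 and OsRac1 were also lost when arrays were scaled on probe sets bright everywhere (adjusted p = 0.190 and 0.0823). NAP1 was also not called with arrays centred on their medians (0.0920), with all probe sets tested (0.0632) or with the replicate number as a block (0.0608). In the 5-min ovary ADF9 was the only listed gene called of 40, against 3.87% of tested probe sets called higher, with a list median of -0.02 against -0.06 over all probe sets.

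Between the unpollinated tissues 14 of the 40 listed genes were called higher in the stigma and 11 lower, against 19.7% and 13.1% of all tested probe sets, with a median of 0.01 against 0.22. ADF5 had the largest change among depolymerizing factors, followed by ADF11 (-1.98 ± 0.33, limma, adjusted p = 0.000151), and the villin VLN1 was lower by a change of -2.12 ± 0.21 (adjusted p = 5.14e-07). OsRac7 was highest of the ROP GTPases (2.33 ± 0.44, adjusted p = 0.000606) and FH8 the lowest of the formins (-1.84 ± 0.21, adjusted p = 2.18e-06). Of the 14 higher calls, 11 were lost with arrays centred on their medians, ADF9 among them, and of the 11 lower calls, ADF5 and ACT2 included, none was. At 5 min 13 listed genes were higher in the stigma than in the ovary and 9 lower, against 20.7% and 14.2% (median 0.18, all probe sets 0.24), with ADF1 the largest among depolymerizing factors.

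**Figure D5:**
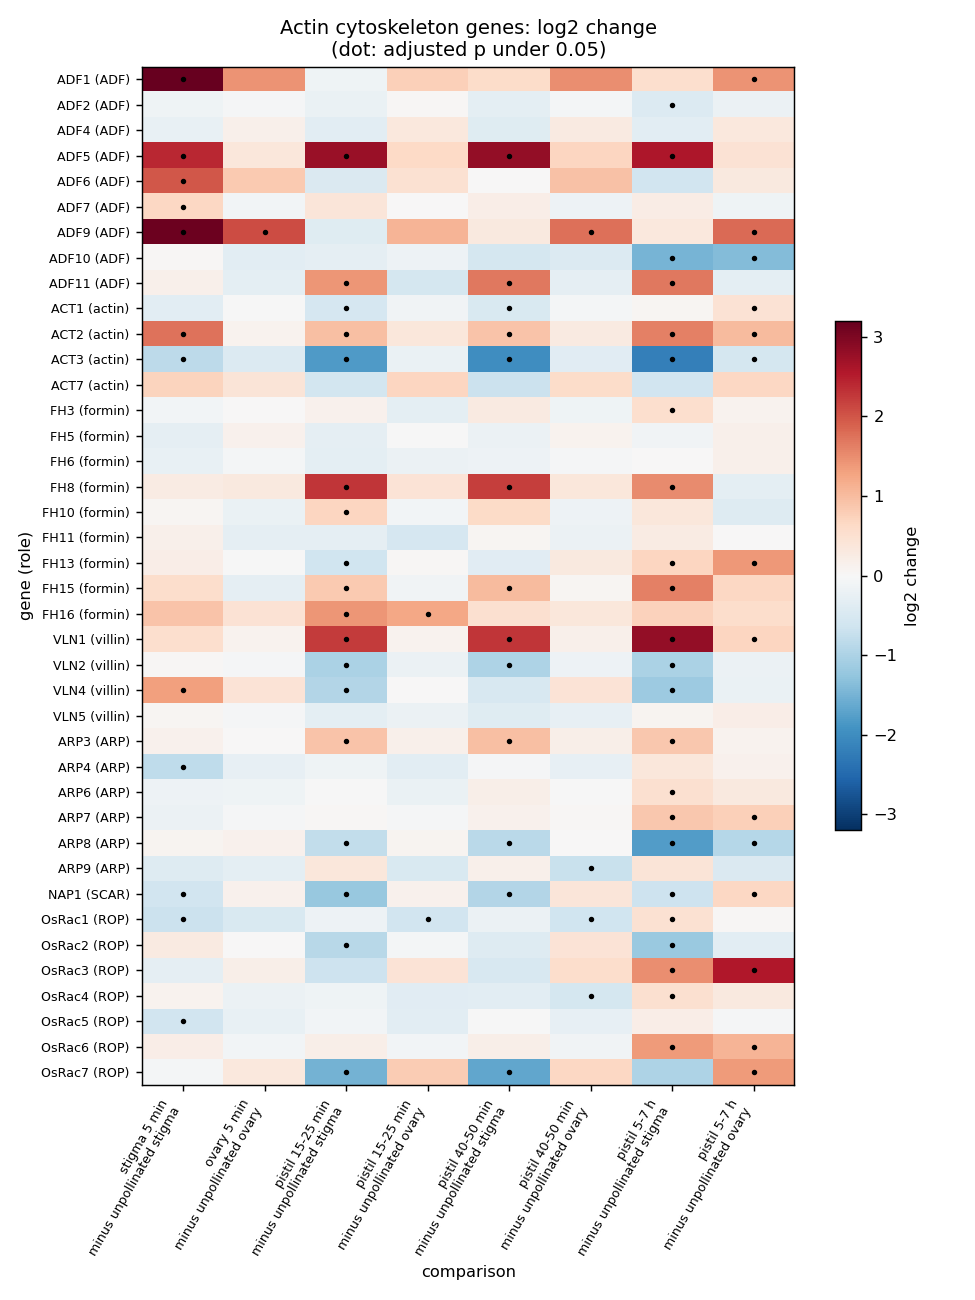
Log2 change of the 40 tested genes of the list of actins, actin-related proteins and regulators (rows, by role) in 8 comparisons (columns). Red is higher and blue lower in the group named first, and a dot marks an adjusted p under 0.05. ADF5, ADF11, FH8 and VLN1 are red in all 3 pistil columns against the unpollinated stigma and none of them is called in all 3 against the unpollinated ovary.

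In the pistils, the formin FH16 was the only listed gene called against both unpollinated tissues at 15-25 min (smaller change 1.24 ± 0.32, limma, adjusted p = 0.0136, and 0.0504 with arrays centred on their medians), and none was at 40-50 min. At 5-7 h 6 were higher and 3 lower, against 8.61% and 7.4% of all tested probe sets. With ACT2, the higher genes were the ROP GTPases OsRac3 and OsRac6, the formin FH13, VLN1 and ARP7, and the lower ones were ADF10, ACT3 and ARP8. The largest was OsRac3, at 1.48 ± 0.28 against the unpollinated stigma (adjusted p = 0.00039) and 2.56 ± 0.28 against the unpollinated ovary (adjusted p = 3.51e-06). In 5-7 h against 40-50 min pistils 9 of the 40 were higher and 3 lower, against 11.2% and 6.78% of all tested probe sets, with a median of 0.20 against -0.03. ACT2 and ACT1 (0.53 ± 0.15, adjusted p = 0.0195) were the actins among them, ADF10 (-0.94 ± 0.24, adjusted p = 0.0105) was the depolymerizing factor, and 4 of the 7 ROP GTPases were higher, led by OsRac3 (1.99 ± 0.28, adjusted p = 0.000148). With arrays centred on their medians 6 of these 12 calls were lost, those of ACT2, ACT1 and ADF10 among them. ACT1 was also not called after quantile normalization (adjusted p = 0.0736), and its second probe set gave 0.22 (adjusted p = 0.738).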

How the data were processed

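Per the labels, 500 ng of total RNA of each sample was labelled and hybridised to an Affymetrix rice array. The deposited values are linear intensity values, 1 per probe set and array, and the submitters' processing notes name GCOS 1.3. The 75th percentile of every array is 1 and the lowest value is 0.01. The sources used here do not name the program that set this scale.

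Log2 was taken after a floor of 0.128 (20th percentile over all values), with no further scaling. Of 57381 probe sets 35496 were tested: not the 123 controls, nor any that exceeded its array's median on fewer than 2 arrays. limma 3.58.1 (R 4.3.3) fitted the 7 group means, leaving 13 residual degrees of freedom, with a variance trend and Benjamini-Hochberg adjustment within each comparison. Between 0.169% and 7.34% of tested values of an array lay at the floor, and precision is limited by how few arrays there are. The pipeline was tested on simulated data.

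Genes were named from the platform annotation and RefSeq's gene table (ASM3414082v1). All 17905 genes with a probe set of their own matched that table. It lists several genes for 95 probe sets and none for 34850. Where a gene had several tested probe sets, that with the highest mean stands for it. Within each list role the called gene with the largest change is named, and for likeness the 3 genes with the highest r among those with a symbol or, where the symbol is a locus number, another name. No profilin, fimbrin or myosin matched by name. The members and lists were chosen with earlier results of these data known. Replicate numbers were not taken to pair the arrays, since same-numbered arrays did not deviate together in every pair of groups. The alternatives were quantile normalization, median centring, scaling on 9128 probe sets that are bright throughout, no filter, no floor, a replicate block, a fit of only the groups compared, and each array left out in turn.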

Additional observations from a re-analysis of the deposited data

Results flagged for a closer look

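The change after pollination differed between stigma and ovary for 2 of the 4 genes by the interaction term of limma's fit. Over all tested probe sets 1.37% were called by that term. For ADF5 the stigma change exceeded the ovary change by 2.04 on the log2 scale, with an adjusted p of 0.0422. For ACT2 it did so by 1.64, with an adjusted p of 0.0140. Both calls were lost with arrays centred on their medians (adjusted p = 0.127 for ADF5 and 0.176 for ACT2). They were also lost in a fit of only the groups compared (0.270 and 0.143). The ADF5 call was lost as well when any of most single arrays was left out. Both genes were lower in the unpollinated stigma than in the unpollinated ovary, and at 5 min neither was called lower in the stigma.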

How the results depend on the processing

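No called change of the 4 genes turned its sign. Of the other listed genes ACT1, called lower in 40-50 min pistils than in the unpollinated stigma (-0.48, limma, adjusted p = 0.0225), turned to 0.02 after quantile normalization (0.907). The 5-min stigma calls of the 4 genes held under each alternative run. Among the members' changes under the alternatives, with leaving out arrays given by its 2 extremes, 338 stayed on the same side of the threshold, 20 lost a call and 2 gained it. Over all probe sets, median centring gave 5021 calls in the stigma comparison at 5 min (as reported 7808), 1119 in the ovary (2090), 174 in the interaction (485) and 926 for 40-50 min pistils against both tissues (1408). A fit of only the groups compared gave 1270, 867, 78 and 733 for the same 4, 5864 between the unpollinated tissues (11635) and 1389 for 15-25 min pistils against both tissues (2128). With all probe sets tested the ovary had 1334. Leaving out an array gave 2963 to 8076 in the stigma, 787 to 2672 in the ovary, 260 to 876 in the interaction, 8065 to 13216 between the tissues at 5 min (12414), 1264 to 2408 at 15-25 min, 760 to 1656 at 40-50 min, and 0 to 6 between 40-50 and 15-25 min pistils (0). The lowest counts came without the second 5-min stigma array (stigma, interaction and 5-min tissues), the third 5-min ovary array, the third 15-25 min array and the first 40-50 min array.

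Of the members called, the ovary count (1) was 0 with all probe sets tested and 0 to 2 with arrays left out. The interaction count (2) was 0 with median centring and in the fit of only the groups, 1 with all probe sets tested, and 1 to 2 with arrays left out. With the replicate number as a block it was 1, ADF5 being lost at an adjusted p of 0.0536. The deviations of same-numbered arrays had r from -0.26 to 0.43, over 0.1 in 22 of 57 pairs. Of the 20 arrays 14 were most like an array of their own number, and what same-numbered arrays shared was not tested. Of the group pairs with 3 numbers in common, only 40-50 min pistils and unpollinated ovaries had every r over 0.1 (0.133 to 0.173). Between unpollinated tissues the count (3) was 1 to 3 with arrays left out, at 40-50 min (0) it was 0 to 2, and between 5-7 h and 40-50 min pistils (1) it was 0 with median centring and 0 to 1 with arrays left out. The cause of these shifts was not tested, except that a fit of fewer groups has fewer samples.

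Scaling moved the balance of calls. Scaling on bright probe sets gave 4174 higher and 1831 lower in the 5-min stigma, against 3053 and 4755 as reported, with the median of all probe sets at 0.21 against -0.02, and 555 and 117 in the interaction (318 and 167). The fit of only the 2 stigma groups gave 1189 and 81. Median centring gave 881 and 238 in the 5-min ovary (1374 and 716), 2647 and 6492 between the unpollinated tissues (6992 and 4643), 2536 and 7692 between the tissues at 5 min (7360 and 5054), 1325 and 111, 807 and 119, and 2892 and 1012 for pistils in order of time against both tissues (1425 and 703, 894 and 514, 3056 and 2628), and 3417 and 1155 between 5-7 h and 40-50 min pistils (3982 and 2408).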
